A study of Homo sapiens with 4 samples.

Results

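The regions described here are the ONECUT2 ChIP-seq peaks called on contigs of the hg19 human genome build, that is, on sequences whose name holds a _ sign. Such contigs are pieces of assembled DNA that the build could not place on a chromosome (names starting with chrUn) or could assign to a chromosome but to no position on it (names ending in _random). They were chosen by name alone. Alternative haplotype sequences of the build (names holding "hap") also carry a _ sign. They had no peak in either list and are left out of all contig counts and lengths here. The contigs make up 0.197% of the summed length of contigs and placed chromosomes. Replicate 1 had 200 contig peaks among 14431 and replicate 2 had 170 among 11990, which makes 370 of 26421 in all. ONECUT2 is a CUT-homeodomain transcription factor, and the cells were 22Rv1, an established human prostate carcinoma line, grown in serum-containing medium with no treatment named in the labels. Chromatin pulled down with a rabbit anti-ONECUT2 antibody gave 2 ChIP libraries, and sonicated chromatin without antibody gave 2 input libraries. Each peak list sets 1 ChIP library against input. The labels do not tie the 2 ChIP libraries to separate cultures, so the spread between them may be technical.

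Contigs without a chromosomal place are known for ribosomal DNA, segmental duplications and other sequence that occurs in many copies in the genome. The contig chrUn_gl000220 carries ribosomal DNA, the repeated units from which RNA polymerase I makes the 45S precursor of the 18S, 5.8S and 28S ribosomal RNAs. A cell has many more copies of such units than the build shows. The sources used here do not say how reads that match several places were treated. No hg19 sequence or annotation was used here, so no recognition sequence was searched and peaks carry no gene names.

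For each peak the authors gave a fold enrichment, the ratio of the fragments piled up at its summit to a local expectation taken from input (called background below), with a −log10 p and a −log10 q. The number of fragments and the background were worked out from fold and p for all 200 and all 170 contig peaks. The median number of fragments at a contig summit was 33 in each list, against 34 and 30 at all other peaks, and this limits the precision of each fold. There were 45 pairs of peaks with the same summit in both lists and a replicate 1 background above its floor. At these, background stood in a constant ratio of 1.11 (replicate 2 over replicate 1), so the fold values of the lists share their denominator there. Only 1 of these pairs lay on a contig. Positions are those of hg19, counted from 1. Intervals below are exact and at 95%, Poisson for densities and Clopper-Pearson for shares. They cover counting error only, and neighbouring peaks are not independent of each other.

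Contig peaks were concentrated on few sequences. Of the 59 contigs in the build, haplotype sequences left out, 11 had a peak in either list and 8 had one in both. The contigs chrUn_gl000224, chr17_gl000205_random, chr7_gl000195_random, chrUn_gl000220 and chrUn_gl000219 together held 192 of the 200 contig peaks in replicate 1 (96.0%) and 164 of 170 in replicate 2 (96.5%). These 5 make up 14.4% of the length of all contigs. They were picked as those with most peaks in these same lists, so part of their large share is built in. Peaks on chrUn_gl000224 numbered 53 in replicate 1 and 44 in replicate 2, the most of any contig. On chr17_gl000205_random there were 41 in each list. The contig chr7_gl000195_random had 35 and 31, and chrUn_gl000219 had 27 and 25. The counts of chrUn_gl000220 differed most, with 36 in replicate 1 and 23 in replicate 2.

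Contigs as a whole held far more peaks per length than the placed chromosomes (1 to 22, X and Y). Haplotype sequences are not in the contig length, and counting them would lower the contig density. The sources used here do not say whether reads were aligned to them. Density was 32.7 peaks per Mb on contigs in replicate 1 (interval 28.4 to 37.6), against 4.59 on placed chromosomes (interval 4.52 to 4.67). In replicate 2 it was 27.8 per Mb (interval 23.8 to 32.3), against 3.81 on placed chromosomes (interval 3.75 to 3.88). The ratio was 7.21 ± 0.116 (SD, n = 2 lists), but 2.79 when only peaks with a fold of 6 or more were counted and 11.0 when covered bases were counted in place of peaks. Among the 5 contigs with most peaks, chrUn_gl000224 was densest, with 295 peaks per Mb (interval 221 to 386) in replicate 1 and 245 (interval 178 to 329) in replicate 2. The least dense of them was chrUn_gl000219, with 151 (interval 99.3 to 219) and 140 (interval 90.3 to 206), in the same order of lists. The remaining contigs together had a density of 1.53 in replicate 1, with an interval of 0.660 to 3.01, and of 1.15 in replicate 2, with an interval of 0.421 to 2.50. Both are below the placed chromosomes. Among them chrUn_gl000241, a short contig with 4 and 3 peaks, was also dense, at 94.9 (interval 25.9 to 243) and 71.2 (interval 14.7 to 208) peaks per Mb. The high density is thus that of a few contigs. The 5 contigs with most peaks were picked by their counts in these same lists, so part of the low density of the rest is built in. In all, 48 contigs had no peak in either list, and how many would be empty from their length alone was not worked out. A peak is what the caller marked as 1 stretch, so a density of peaks need not be a density of occupied sites.

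**Figure D1:**
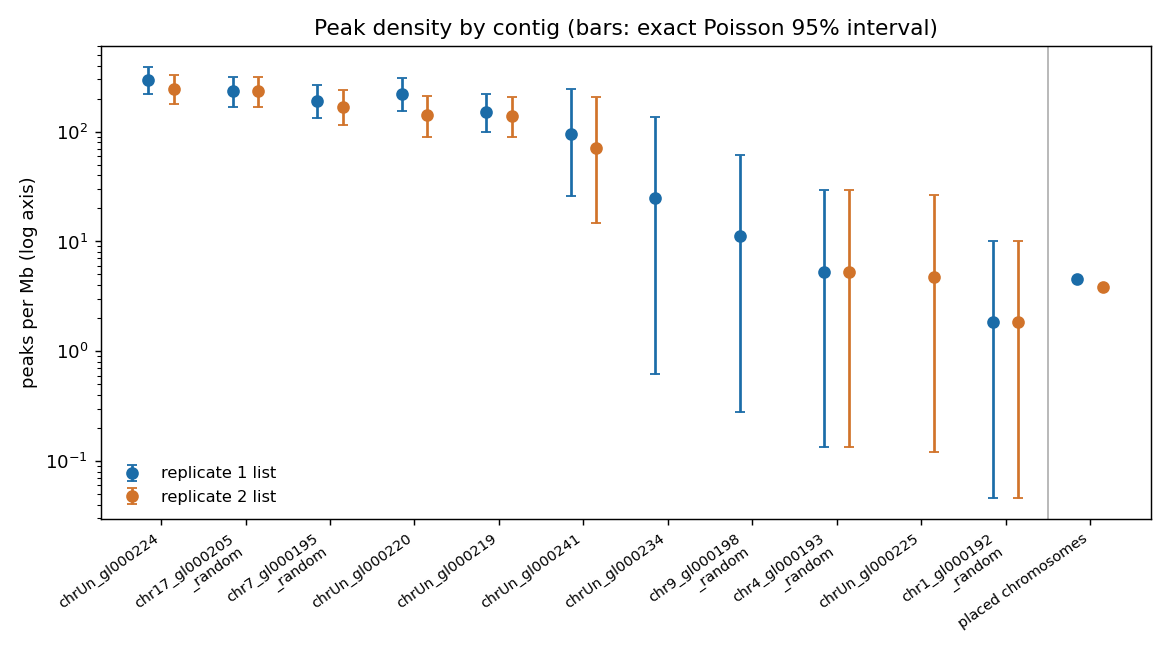
Peaks per Mb (log axis) on each contig with a peak and, at the right, on the placed chromosomes, with replicate 1 in blue and replicate 2 in orange; bars are exact Poisson 95% intervals, and a contig with 0 peaks in a list has no point there. The 5 contigs at the left lie between 140 and 295 peaks per Mb in both lists, against 4.59 and 3.81 on placed chromosomes.

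The 2 _random contigs among the 5 were set beside the chromosomes they are assigned to. On chr17_gl000205_random the density was 235 peaks per Mb in each list (interval 169 to 319), against 7.49 and 4.84 on chromosome 17. On chr7_gl000195_random it was 191 (interval 133 to 266) and 169 (interval 115 to 241), against 7.39 and 8.04 on chromosome 7. Chromosome 19, the most gene-dense human chromosome, had 13.5 and 8.57 peaks per Mb. Fold enrichment differed far less than density, with a median of 3.83 and 3.43 on chr17_gl000205_random against 3.10 and 3.16 on chromosome 17. On chr7_gl000195_random the median was 3.02 and 3.19, against 3.33 and 3.41 on chromosome 7.

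Contig peaks lay close together and were wide. A neighbouring peak within 1000 bp was found for 161 of 200 contig peaks in replicate 1 (80.5%, interval 74.3 to 85.8) and 140 of 170 in replicate 2 (82.4%, interval 75.8 to 87.8). Over the whole lists these shares were 44.5% and 41.8%. The median gap to the nearest peak was 188 bp and 194 bp on contigs, against 3643 bp and 4435 bp elsewhere. Median width was 386 bp and 402 bp on contigs, against 316 bp and 293 bp for all other peaks, a ratio of 1.30 ± 0.105 (SD, n = 2 lists). A width of 1000 bp or more was reached by 37 contig peaks of replicate 1, or 18.5% with an interval of 13.4 to 24.6, and by 21 of replicate 2, or 12.4% with an interval of 7.81 to 18.3. In the whole lists 9.62% and 7.85% were that wide, and in replicate 2 the interval includes this share. Peaks covered 2.29% and 1.93% of the contigs' length, against 0.219% and 0.169% of the placed chromosomes.

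The contig chrUn_gl000224 held the widest peak of either list. It ran from 151881 to 176247 in replicate 1 and from 152553 to 176162 in replicate 2, which is 24.4 kb and 23.6 kb. The widest peak elsewhere was 5511 bp in replicate 1 and 7266 bp in replicate 2. At its summit there were 74 fragments in each list, but the summits were 1321 bp apart, and the background was 5.91 in replicate 1 and 9.52 in replicate 2. The fold enrichment was 10.8 and 7.13, or 8.99 ± 2.63 (SD, n = 2). It was the contig peak of highest fold in both lists, ranked 289 by fold among all peaks of replicate 1 and 559 among those of replicate 2. Peaks to its left formed a near-continuous run. With gaps of at most 1 kb, a run of 35 peaks spanned 54.4 kb in replicate 1, from 121873 to 176247, and peaks covered 85.1% of it. In replicate 2 the same stretch fell into 3 runs, the last of which had 17 peaks over 40.6 kb and was 90.5% covered. Other peaks on this contig had a lower fold enrichment, down to 2.26 and 2.09, and the pair of second highest mean fold reached 5.69 ± 1.10 (SD, n = 2) at 138945 to 140889 in replicate 1. Input background there was low, with a median of 5.91 and 6.64 fragments over the contig's peaks, against 10.2 and 7.34 at all peaks outside contigs.

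**Figure D2:**
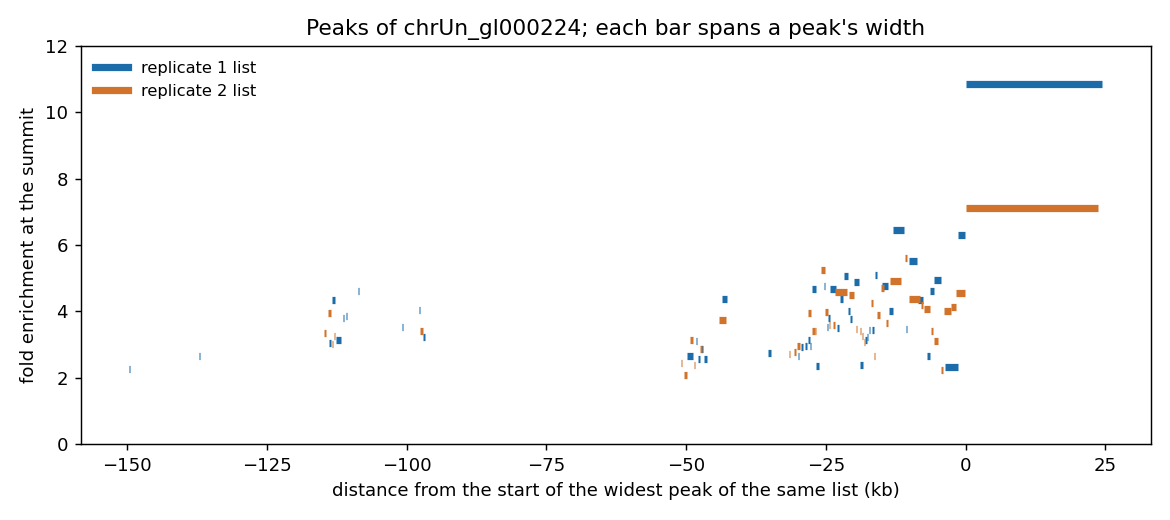
Peaks on chrUn_gl000224, each drawn as a bar over its own width at its fold enrichment (vertical axis), by distance in kb from the start of the widest peak of the same list; replicate 1 is blue and replicate 2 orange. The widest peaks, 24.4 kb and 23.6 kb long, stand at a fold of 10.8 and 7.13, and a run of narrower peaks leads up to them in both lists.

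Peaks also gathered near the right end of chr17_gl000205_random and chrUn_gl000219. On chr17_gl000205_random the longest run had 14 peaks over 15.1 kb in replicate 1 and 13 peaks over 14.9 kb in replicate 2, and it stopped 0.196 kb and 0.315 kb before the end. The pair of highest mean fold on this contig lay in that run, from 160339 to 163193 in replicate 1 and 160386 to 163163 in replicate 2. It had 37 and 35 fragments over a background of 5.26 and 4.87, and its fold of 6.07 and 6.13 (6.10 ± 0.0403, SD, n = 2) hardly differed between the lists. Its summits were 339 bp apart, so these folds were read at different places, and 4.87 is the floor of replicate 2. On chrUn_gl000219, the last 20 kb held 14 of 27 peaks in replicate 1 and 13 of 25 in replicate 2, which is 51.9% and 52.0% of its peaks on 11.2% of its length. The pair of highest mean fold there, from 170720 to 171779 in replicate 1, had a fold of 7.50 and 3.42 (5.46 ± 2.88, SD, n = 2), with 41 and 30 fragments over 4.60 and 8.05. The next pair on this contig, from 177856 to 179072 in replicate 1, had 5.28 and 5.32, and ended 0.126 kb and 0.127 kb before the end of the contig. The last peak of chrUn_gl000224 stopped 3.45 kb and 3.53 kb before the end. By contrast, no peak of chr7_gl000195_random or chrUn_gl000220 lay in the last 20 kb in either list. The last peak of chrUn_gl000220 ended 20.6 kb before the end in replicate 1, just outside that window, and 26.2 kb before it in replicate 2. Runs, contig ends and second pairs were looked at after their values were seen.

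On chr7_gl000195_random the last peak ended 71.6 kb and 71.5 kb before the right end. The longest run began at 10081 in replicate 1, with 11 peaks over 9.30 kb, and at 10090 in replicate 2, with 8 peaks over 6.74 kb. The pair of highest mean fold, starting at 12029 in replicate 1, had 45 fragments over 7.01 and a fold of 5.74 there, and 30 over 7.71 and a fold of 3.56 in replicate 2 (4.65 ± 1.54, SD, n = 2). A pair starting at 74107 in replicate 1, singled out after its values were seen, had more fragments, 78 in each list, over a background of 17.7 and 17.6. Its fold of 4.22 and 4.25 was alike in the lists. No peak on this contig reached a fold of 6 in either list.

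The ribosomal DNA contig, chrUn_gl000220, stood apart from the other 4 in its background and had the lowest median fold enrichment of the 5. The median fold was 2.45 in replicate 1 and 2.48 in replicate 2, while the other 4 lay between 3.02 and 3.91. The median background under its peaks was 16.1 and 13.9 fragments, against 5.91 to 11.9 and 6.64 to 10.3 on the other 4. Background is in the denominator of fold, so the low fold and the high background are not separate results. Its peaks fell into a left and a right group of unlike background, with no peak between them. In replicate 1 no peak lay between 95371 and 118586, a gap of 23.2 kb, and in replicate 2 none lay between 95210 and 127341, a gap of 32.1 kb. The position of the 45S gene relative to this gap was not analysed here.

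In the left group of chrUn_gl000220 there were 25 peaks in replicate 1 and 18 in replicate 2, with a median background of 12.1 and 13.1 fragments. This group held all of the 15 peaks of highest fold on the contig in each list, which ranged from 2.69 to 7.15 in replicate 1 and from 2.42 to 6.53 in replicate 2. Median fold was 2.71 and 2.61. One peak stood out from the rest of the group. It ran from 51053 to 53172 in replicate 1 and from 51195 to 53129 in replicate 2, with 100 fragments over 13.1 and 101 over 14.6. Its fold enrichment was 7.15 and 6.53 (6.84 ± 0.435, SD, n = 2), and its summits were 46 bp apart. By −log10 q (48.4 and 45.1) it ranked 578 and 469 among all peaks. It is the only peak of the contig with a fold of 6 or more in either list. The pair next in fold, starting at 49215 in replicate 1, had 38 and 39 fragments and a fold of 3.60 and 3.30 (3.45 ± 0.207, SD, n = 2). A pair starting at 80349 in replicate 1 had 38 and 42 fragments and a fold of 3.11 and 3.09. At the left end, a pair starting at 7689 in replicate 1 had 98 and 94 fragments, nearly as many as the strongest peak. This pair and those of the right group were singled out after their values were seen. Its background was 43.4 and 48.3, and its fold was 2.23 and 1.93.

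In the right group of chrUn_gl000220 there were 11 peaks in replicate 1 and 5 in replicate 2, from 118586 to 141176 and from 127341 to 135562. Fragments were many, 201 to 272 in replicate 1 and 205 to 244 in replicate 2, but the background was 125 to 204 and 137 to 177. Fold enrichment was low, from 1.33 to 1.84 and from 1.38 to 1.68. All 5 right peaks of replicate 2 overlapped one of replicate 1. The pair of highest fold among them, from 131962 to 132728 in replicate 1 and 132084 to 132691 in replicate 2, had 230 and 231 fragments over 125 and 137, and a fold of 1.84 and 1.68 (1.76 ± 0.113, SD, n = 2). The pair starting at 127019 in replicate 1 had 221 and 218 fragments, a fold of 1.61 and 1.42, and summits 2 bp apart. The pair starting at 134965 in replicate 1 had the most fragments of the 5, 260 and 244, and the lowest fold, 1.38 in each list. The fewest fragments of a right peak, 201 and 205, thus exceeded the most of a left one, 100 and 101, while right fold ended at 1.84 and 1.68 and left fold began at 1.66 and 1.93.

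**Figure D3:**
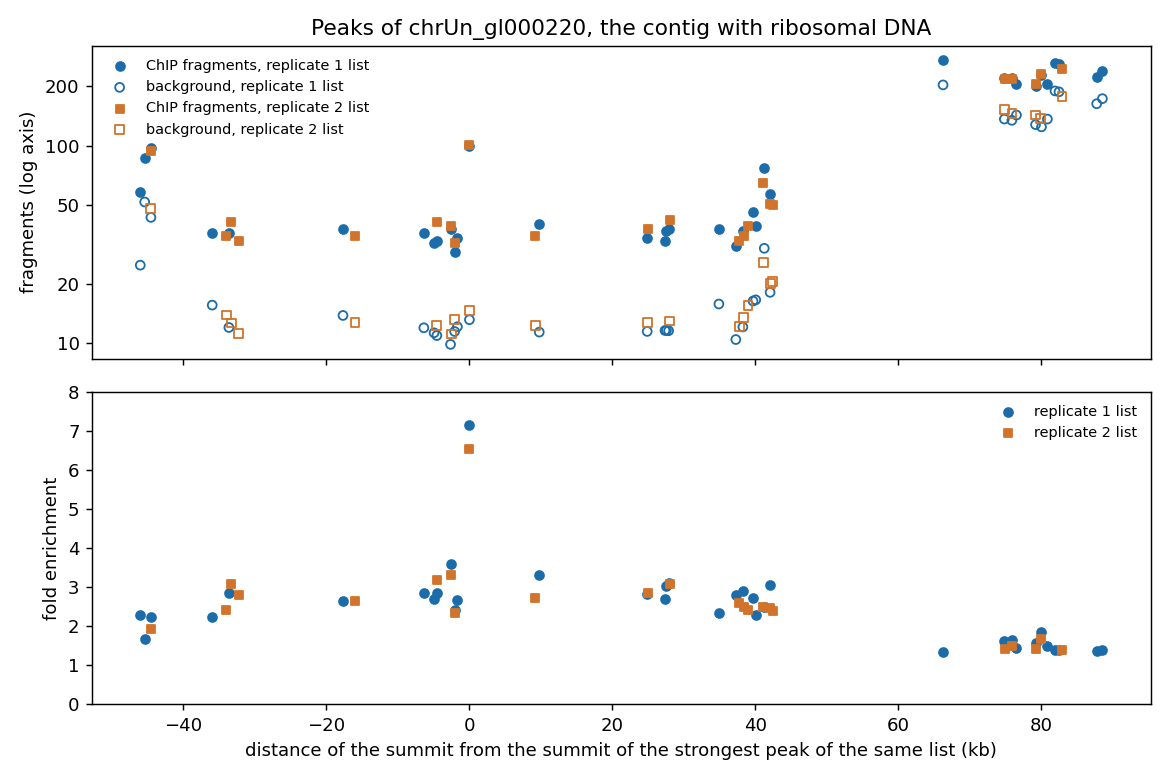
Peaks on chrUn_gl000220 by distance in kb of the summit from the summit of the strongest peak of the same list, with ChIP fragments (filled) and background (open) on a log axis above and fold enrichment below; replicate 1 is blue circles and replicate 2 orange squares. Beyond the gap at the right, background is 125 to 204 fragments in replicate 1 and 137 to 177 in replicate 2, and fold enrichment stays under 2.

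A background of 100 fragments or more was rare outside this contig. It was found at 25 peaks elsewhere in replicate 1, of which 16 lay on mitochondrial DNA and 6 on chromosome 6, and at 12 in replicate 2, of which 10 lay on mitochondrial DNA and 2 on chromosome 6. The median fold of the high-background peaks was 1.43 on chrUn_gl000220 in each list, against 1.60 and 1.66 elsewhere. Mitochondrial DNA, another sequence with many copies in a cell, had a median fold of 1.62 and 1.71.

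Over all contigs together, fold enrichment was close to that of other peaks. The median was 3.24 in replicate 1 and 3.34 in replicate 2, against 3.28 and 3.41 at all other peaks, a ratio of 0.984 ± 0.00393 (SD, n = 2 lists). Among the 5 contigs with most peaks, only leaving out chrUn_gl000220 took the ratio above 1, to 1.03. Leaving out each of the others gave 0.935 (without chrUn_gl000224) to 0.998 (without chr7_gl000195_random). The side of 1 on which the ratio falls thus rests on chrUn_gl000220. Within classes of like background the medians differed in either direction. Over a background of less than 10 fragments, which held 116 and 97 contig peaks, they were 3.91 and 3.65 on contigs and 3.70 and 3.58 elsewhere. From 10 to 20 fragments they were 2.85 and 2.80 on contigs and 2.81 and 2.79 elsewhere, and from 20 to 50 fragments 2.26 and 2.38 on contigs and 2.43 in each list elsewhere. A high fold made up a smaller share of contig peaks, which rests on few peaks and has no test. A fold of 6 or more was reached by 8 of 200 contig peaks in replicate 1 (4.00%) and by 3 of 170 in replicate 2 (1.76%), against 7.46% and 7.08% of whole lists. The highest fold on a contig, 10.8 and 7.13, compares with 30.8 and 32.2 elsewhere. The 8 peaks of replicate 1 were 3 on chrUn_gl000224, 2 each on chrUn_gl000219 and chr17_gl000205_random and 1 on chrUn_gl000220. Each of these 8 overlapped a replicate 2 peak, and each of the 3 of replicate 2 overlapped a replicate 1 peak. Over whole lists 99.8% and 99.4% of such peaks did.

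**Figure D4:**
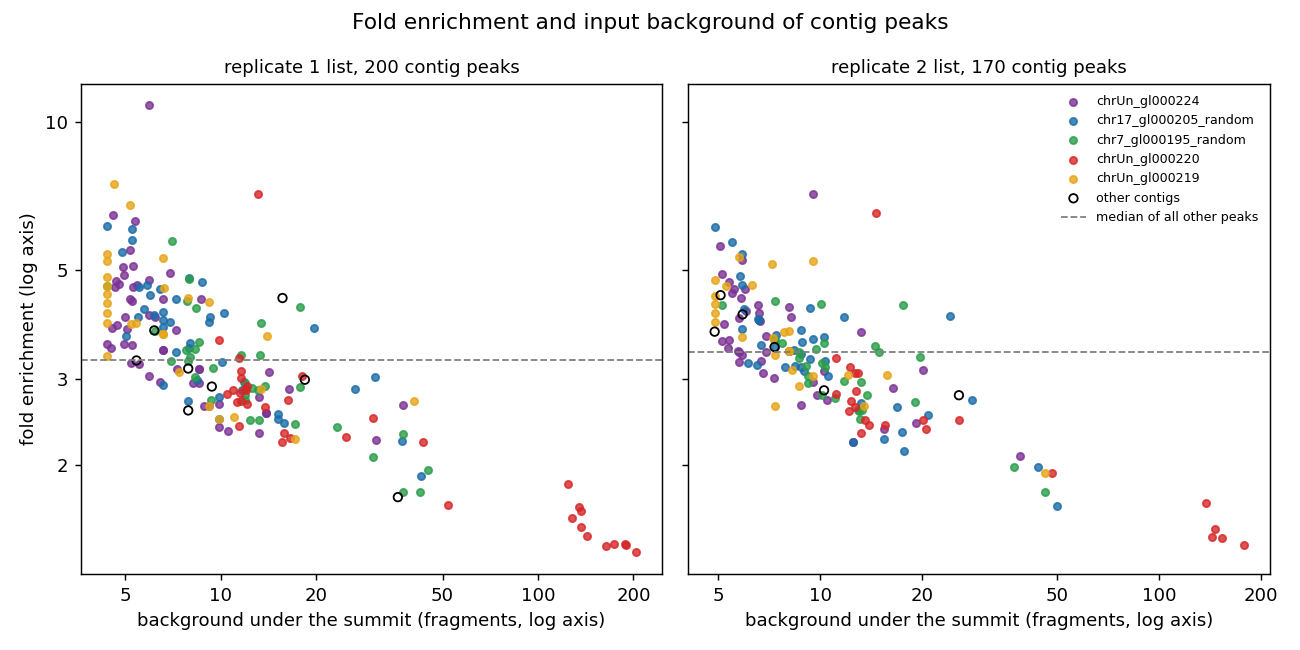
Fold enrichment (log axis) against background under the summit (fragments, log axis) for each contig peak, coloured by contig, in replicate 1 (left) and replicate 2 (right); the dashed line is the median fold of all peaks outside contigs. Fold falls as background rises, and the 11 and 5 peaks of chrUn_gl000220 with a background of over 100 lie at the lower right with a fold under 2. Background is in the denominator of fold and peaks had to pass a calling threshold. Part of this trend is thus built in, and how much was not tested.

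The next question was whether the 2 libraries marked the same places on contigs. In replicate 1, 132 of 200 contig peaks (66.0%, interval 59.0 to 72.5) shared at least 1 bp with a replicate 2 peak, against 51.1% of the whole list. In replicate 2 it was 145 of 170 (85.3%, interval 79.1 to 90.3), against 64.5%. Chromosomes 17 and 19 reached similar shares in replicate 2, at 83.5% and 80.5%, but had 49.5% and 47.4% in replicate 1. Chromosome 7 had 52.3% in replicate 1 and 49.6% in replicate 2. Over a background of less than 10 fragments, 75.0% of 116 and 88.7% of 97 contig peaks were shared, against 53.5% and 48.8% of other peaks. From 10 to 20 fragments the shares were 58.2% and 75.5%, against 47.4% and 87.7%, so that the order turned in replicate 2. From 20 to 50 fragments, with 17 and 15 contig peaks, they were 47.1% and 93.3%, against 54.4% and 95.2%. Contig peaks were also wider and closer together, and the part of this in their overlap was not tested. Where each peak had to cover 50% of the other, the shares were 40.0% and 47.1% on contigs, against 32.4% and 39.0% of whole lists. Where summits had to lie within 100 bp, the direction turned, with 24.5% (interval 18.7 to 31.1) and 28.8% (interval 22.1 to 36.3) on contigs against 29.7% and 35.8% of whole lists. Both intervals include the share of the whole list. Of the 132 contig pairs, 49 (37.1%, interval 28.9 to 46.0) had summits within 100 bp, against 58.5% of the 7238 pairs elsewhere. The median distance between summits was 163 bp on contigs and 78 bp elsewhere. The larger share on contigs thus holds for overlap and not for summits.

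The contigs differed in this. On chr17_gl000205_random, 35 of 41 peaks of replicate 1 (85.4%, interval 70.8 to 94.4) and 37 of 41 of replicate 2 (90.2%, interval 76.9 to 97.3) were shared, but only 10 of its 35 pairs had summits within 100 bp. On chrUn_gl000224 the shares were 71.7% (interval 57.7 to 83.2) and 90.9% (interval 78.3 to 97.5), with 12 of 38 pairs within 100 bp. On chrUn_gl000220, 18 of 36 (interval 32.9% to 67.1%) and 19 of 23 (82.6%) were shared, and 12 of 18 pairs were within 100 bp, with a median distance of 64 bp. Its 36 and 23 peaks thus gave 18 unshared peaks in replicate 1 and 4 in replicate 2. Over the whole lists 51.1% of peaks in replicate 1 and 64.5% in replicate 2 were shared, so the 18 of 36 was close to the whole list. The contigs chr7_gl000195_random and chrUn_gl000219 had 62.9% (interval 44.9 to 78.5) and 63.0% (interval 42.4 to 80.6) in replicate 1. In replicate 2 they had 90.3% (interval 74.2 to 98.0) and 76.0% (interval 54.9 to 90.6). In replicate 1 the intervals of chr17_gl000205_random and chrUn_gl000220 do not overlap. All other intervals of these 5 contigs within a list overlap, so no further order can be read from them.

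**Figure D5:**
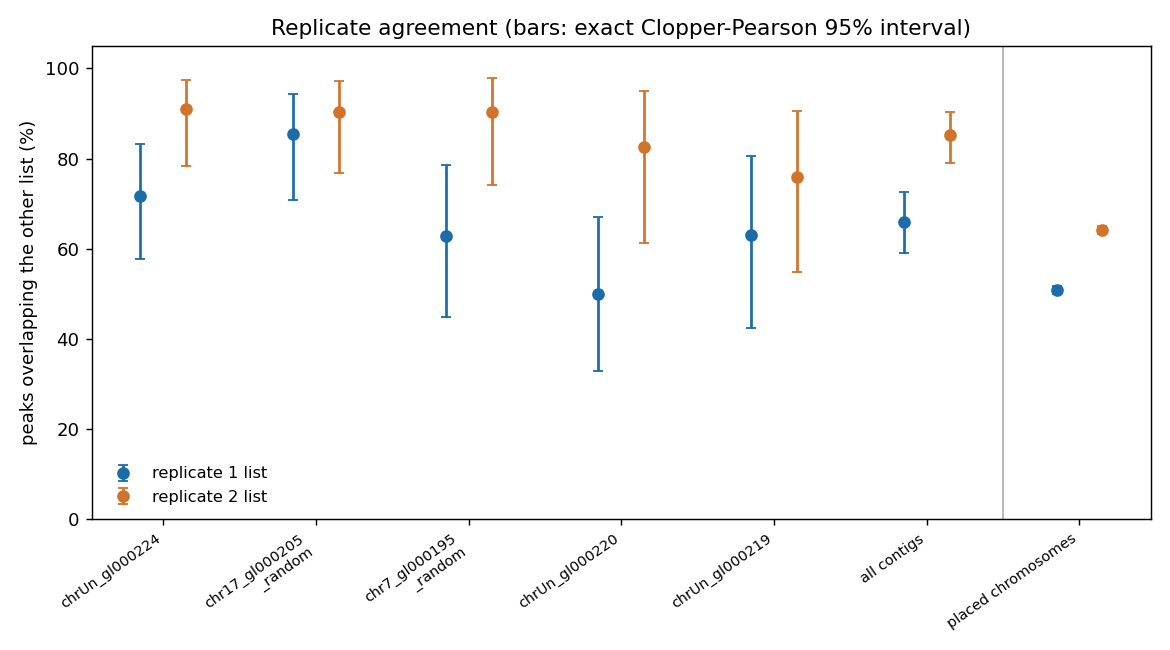
Share of peaks (%) that overlap a peak of the other list by at least 1 bp, for the 5 contigs with most peaks, all contigs and the placed chromosomes, with replicate 1 in blue and replicate 2 in orange; bars are exact Clopper-Pearson 95% intervals. All contigs lie at 66.0% and 85.3%, above the 50.8% and 64.2% of placed chromosomes, and the intervals of single contigs are wide.

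The 68 contig peaks found in replicate 1 only and the 25 in replicate 2 only were narrower and lower at the median than shared ones. In the whole lists 7061 of 14431 and 4251 of 11990 peaks were found in 1 list only. Median width of such contig peaks was 244 bp and 254 bp, against 554 bp and 460 bp for shared contig peaks. Elsewhere it was 243 bp and 223 bp, against 495 bp and 375 bp for shared peaks. Median fold of contig peaks of 1 list only was 2.81 and 2.90, against 3.68 and 3.41, and none reached 6. Elsewhere it was 2.91 and 3.41, against 3.72 and 3.39, so it was not lower in replicate 2. Among these other peaks of 1 list only, 2 of 6993 in replicate 1 and 5 of 4226 in replicate 2 reached 6. The highest fold among the contig peaks of 1 list only was 4.65 in replicate 1 and 4.67 in replicate 2.

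Fragment numbers at contig pairs were compared between the libraries with an exact two-sided binomial test per pair, adjusted by Benjamini-Hochberg over all 7370 pairs of the lists. The test compares these 2 libraries and covers counting error only. The 132 contig pairs hold 121 distinct replicate 2 peaks, since 8 of these entered 2 pairs each and 1 entered 4, so the pairs are not all independent. None of the 132 contig pairs passed an adjusted p of 0.05. The smallest adjusted p was 0.948, and 1 pair, on chrUn_gl000224, had an unadjusted exact p under 0.05, at 0.0431. Over all pairs 1.06% passed, all with more fragments in replicate 2. With summits within 100 bp, 1 of 4285 pairs passed. Fragments of a pair are read at the summit of each peak, and these summits can lie apart. A replicate 2 peak can enter several pairs, but a replicate 1 peak enters only 1. The part of this pairing in the direction was not tested, so the direction need not be a difference between the libraries. Log2 ratios of fragments (replicate 1 over replicate 2) had an SD of 0.24 over contig pairs, against 0.35 from counting error alone. At pairs elsewhere the SD was 0.37, against 0.34 from counting error. Pairs enter only when both libraries passed the calling threshold, and the part of this in either SD was not tested. Replicate 1 had the higher fold at 83 of the 132 contig pairs, against 4834 of 7238 pairs elsewhere, and the higher number of fragments at 55 of the 132, against 3819 of 7238 elsewhere.

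The other 6 contigs with a peak had between 1 and 4 in a list. On chrUn_gl000241 there were 4 peaks in replicate 1 and 3 in replicate 2, of which 1 pair overlapped, with 27 and 28 fragments and a fold of 3.15 and 3.49 (3.32 ± 0.237, SD, n = 2). On chr1_gl000192_random there was 1 peak in each list at the same place, from 544797 to 545289 in replicate 1 and from 544773 to 545272 in replicate 2. It had 72 and 73 fragments, over a background of 15.6 and 25.6 at summits 79 bp apart, and a fold of 4.39 and 2.78 (3.58 ± 1.14, SD, n = 2). On chr4_gl000193_random each list had 1 peak, and these did not overlap. The contigs chr9_gl000198_random and chrUn_gl000234 had 1 peak each in replicate 1 only, with a fold of 3.77 and 2.90. The contig chrUn_gl000225 had 1 in replicate 2 only, with 2.85.

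No region of the authors' deposited irreproducible discovery rate (IDR) list lay on a contig, although that list has 4297 regions. It held 0 of 200 contig peaks of replicate 1 and 0 of 170 of replicate 2, against 32.8% and 31.4% of whole lists. A count of 0 allows shares of up to 1.50% and 1.76% (3 counts of the total) for counting error only, which says nothing of a list from which contigs may have been left out as a class. Among peaks with a fold of 6 or more, it held 0 of the 8 and 0 of the 3 on contigs, against 79.9% and 76.9% of all such peaks in the lists. The 24.4 kb peak of chrUn_gl000224 and the peak of chrUn_gl000220 that starts at 51053 were thus called in both replicates and absent from it. Mitochondrial DNA was not left out, since 15 of its 16 peaks in replicate 1 and 10 of 10 in replicate 2 overlapped IDR regions. The sources used here do not say whether contigs were removed before or during that procedure, and this was not tested.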

How the data were processed

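The peak lists used were 1 MACS2 list for each of the 2 ChIP libraries, per the file headers, and 1 IDR list without replicates. Per the submitters' processing notes, the build was hg19 and the tools include MACS2 2.1.1, BWA 0.7.13-r1126 and Picard, with no roles. The sources used here give no calling settings or read totals. As deposited by the authors, replicate peaks carry a score, a fold enrichment (ratio) and −log10 values of p and q, and the IDR list a score and a signal value of unnamed scale. All such values are the authors' own. The smallest deposited −log10 q was 1.32 in both lists.

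Fragments and background were recovered from fold, taken as (fragments + 1)/(background + 1), and the Poisson upper tail. Whole fragments fitted within 0.001 in 100% of peaks of each list. Recovery, overlap and the binomial test were tested on simulated data. At 45 of 45 pairs with the same summit and a replicate 1 background above its floor (1 on a contig), backgrounds stood in the ratio of their smallest values within 0.1%. Densities use sequence lengths of the public hg19 assembly, which come from outside the deposited files; all peak ends lay within them. Computing used Python 3.11.15, scipy 1.17.1 and pandas 2.3.3. Each replicate 1 peak was paired with the overlapping replicate 2 peak of nearest summit, and the binomial test takes the ratio of fragment totals over all pairs as the library ratio.

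The rule for named regions was every contig with its counts, the 15 peaks of highest fold per list on chrUn_gl000220, given there by range, and the pair of highest mean fold on other contigs. Members, comparisons and rules were chosen with earlier results of these data known. The contrast of contigs with other peaks has no test, since peaks of a library are not replicates. The 2 input libraries have no values of their own here. No sequence whose name holds "hap" occurred in the lists, and such sequences are in no contig count or length.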

Additional observations from a re-analysis of the deposited data

How the results depend on the processing

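Of 52 alternative values, 28 stayed within the interval, replicate spread or count tolerance of their result, while 24 moved further; why they moved was not tested. The overlap share of contig peaks (66.0% in replicate 1, 85.3% in replicate 2) was 40.0% and 47.1% where each peak had to cover 50% of the other, against 32.4% and 39.0% of whole lists. For summits within 100 bp it was 24.5% and 28.8%, below the 29.7% and 35.8% of whole lists, so the contrast turned. With −log10 q of at least 5 it was 78.4% in replicate 2, against 68.6%. The density ratio of contigs to placed chromosomes (7.21) was 8.81 with −log10 q of at least 5, 2.79 for a fold of 6 or more, 22.0 over contigs with a peak, and 11.0 for covered bases. It was 6.24 without chrUn_gl000220, 5.48 without chrUn_gl000224, 5.76 without chr17_gl000205_random, 6.10 without chr7_gl000195_random and 6.38 without chrUn_gl000219. From 1 list alone it was 7.13 to 7.29. The ratio of median fold (0.984) was 0.982 to 0.987 from 1 list alone and 0.969 with −log10 q of at least 5. It was 1.04 for fragments, 1.04 for background, and 1.01 over a background of 10 to 20. Without each of those 5 contigs in turn, in the same order, it was 1.03, 0.935, 0.965, 0.998 and 0.958. The ratio of median width (1.30) was 1.22 to 1.37 from 1 list alone and 1.17 with −log10 q of at least 5. The count of contig pairs with unlike fragments stayed at 0 with summits within 100 bp and with the library ratio taken from the smallest backgrounds, where 1 and 3 pairs had an unadjusted exact p under 0.05; over all pairs the binomial test passed 78, 1 and 129 (as reported, summits, ratio). The share in the IDR list stayed at 0 under both alternatives. Leaving out single contigs other than chrUn_gl000220, and the background of 10 to 20, were added after seeing the data. No paired analysis was possible because input has no values apart from the background inside each ChIP list. Overlaps and pairs need both lists, so neither could be left out there.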
